A study of Mus musculus with 24 samples.

Results

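Infusion of angiotensin II (AngII) was compared with a saline sham infusion in the left ventricle of wild type C57Bl/6J mice, with 3 Illumina expression arrays on each side. A probe entered when its detection p-value, the array software's chance that a signal is background, was below 0.05 on at least 3 of the 12 C57Bl/6J arrays. This rule kept 20319 of 45281 probes, and they measured 10816 of the 19057 genes named on the array, each read by its brightest kept probe. The wild type groups were male mice that had received AngII or NaCl for 2 weeks, and each array held RNA of 1 left ventricle sample. Beside them stood Bmx deficient C57Bl/6J males (labelled KO) on AngII or sham, and wild type Balb/C males on AngII or sham, again 3 arrays a group. The Balb/C arrays were filtered, normalized and fitted together with those of Bmx deficient Balb/C mice (labelled TK) on AngII or sham, 3 arrays a group. Values of the TK groups are not reported here. Bmx encodes a tyrosine kinase best known from endothelial and bone marrow cells. The Bmx allele, the dose and the age are not given in the sources used here. AngII infused into the whole animal acts on vessels, kidney, adrenal and heart together, so an action on ventricular cells cannot be told apart from one through blood pressure. The labels did not say that the replicates came from separate animals, and p-values therefore measure the spread between these samples.

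AngII is the effector peptide of the renin-angiotensin system and acts mainly through the AT1 receptor, which is coupled to calcium, kinase and reactive oxygen signals. In the heart its infusion is known for hypertrophy of myocytes, activation of fibroblasts and entry of monocytes, and for a shift of the myocyte away from fatty acid oxidation. The natriuretic peptides, fetal contractile proteins and collagens that mark this state are well known. They are given below only as reference, and the account is about the other gene groups.

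Values are normalized log2 signals, on which 1 unit is a 2-fold difference. Differences are AngII minus sham with the standard error from limma (n = 3 arrays a group). A gene was called when its Benjamini-Hochberg adjusted p over all 10816 genes was below 0.05, and "rose" and "fell" are used only for called genes. An offset of 16 was added to the signals before logarithms, so differences of dim genes are understated. Each gene named by the rule stated under the processing was also tested under up to 18 other settings of processing, filter, model or arrays. The number of settings in which it passed is given where any failed. Genes named outside that rule have no such count, and its absence there does not mean that they passed.

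The arrays of both groups were alike in brightness, with median signals between 132.3 and 139.8 in AngII and between 126.3 and 129.4 in sham, and with 17934 to 19071 detected probes. The correlation over the 10816 genes, each read by its brightest kept probe, was 0.988 to 0.992 within AngII, 0.991 to 0.992 within sham and 0.98 to 0.984 between the groups. Markers of ventricular myocardium were present, as the tissue label has it. Of 18 measured ventricular markers, 1 was called (Hrc, a calcium-binding protein of the sarcoplasmic reticulum, -0.38 ± 0.10, passing in 10 of 18 settings), and their summed linear signal was 413681 to 430247 in AngII and 437035 to 441957 in sham. The atrial light chain Myl7 and sarcolipin (Sln), which mark atrial tissue, were not detected often enough to be kept. Of 12 measured atrial markers 2 were called higher (Nppa and Dkk3, 16.7% against 7.91% over all genes) and 0 lower. The summed linear signal of the 12 was 24000 to 35973 in AngII and 16133 to 17201 in sham. Nppa is also a natriuretic peptide marker of hypertrophy. A part of atrial tissue in these values was not tested. Bmx could not check the genotype labels, because its probe read 6.70, 6.63 and 6.28 in wild type AngII and 6.46, 6.51 and 6.32 in sham, against 6.63, 6.12 and 6.02 and against 6.11, 6.00 and 6.22 in the deficient groups. The part of Bmx that was changed is not given in the sources used here.

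The reference markers moved as groups. Among the hypertrophy markers 10 were called higher and 0 lower out of 19 (median 0.70), and among the matrix genes 20 higher and 4 lower out of 68 (median 0.37). Skeletal actin Acta1 rose by 2.53 ± 0.32 (adjusted p = 0.00114, limma) and lysyl oxidase Lox, which crosslinks collagen, by 2.20 ± 0.38 (adjusted p = 0.00545).

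The wild type AngII arrays also stood apart from all other C57Bl/6J arrays, deficient AngII arrays included, at a handful of genes. For 6 genes (Wdfy1, Serpina3n, Plac9a, Mmrn1, Gm9780 and Rab4a) the 3 wild type AngII values lay more than 1 unit outside the range of the 9 other arrays, whereas 0 genes did so for the 3 deficient AngII arrays. Mmrn1, encoding a platelet and endothelial adhesive protein, read 6.75, 6.24 and 6.93 against 4.38 to 4.71 on the 9 others, where it was not detected, which is at least 3.09-fold higher than in sham. It met the detection filter only through the 3 wild type AngII arrays. Plac9a read 8.99, 8.88 and 8.40 against 6.01 to 6.51. In the opposite direction Wdfy1, an endosomal protein of Toll-like receptor signalling, read 6.39, 6.20 and 6.41 against 7.98 to 8.60. Rab4a, a small GTPase of endosome recycling, read 6.61, 6.76 and 7.04 against 8.14 to 8.32. At Serpina3n, described below, the deficient AngII arrays (7.96, 8.07 and 8.29) also lay above the deficient sham arrays (6.81 to 7.45).

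Other genes showed the same layout with smaller gaps. Nnt, the mitochondrial transhydrogenase, read 7.30, 7.33 and 7.69 in wild type AngII against 7.92 to 8.94 on the others, with a difference of -1.27 ± 0.19 (adjusted p = 0.00251, limma) and of -0.22 in the deficient mice. Nnt also fell in wild type Balb/C (-1.15), and its 3 dimmer kept probes gave -0.59, -0.28 and 0.03 in wild type C57Bl/6J. Ide (insulin-degrading enzyme) read 11.32, 11.27 and 11.27 against 10.32 to 10.72, and Entpd4 (a Golgi and lysosomal nucleotidase) 12.18, 12.24 and 12.24 against 11.45 to 11.76. Ide, Entpd4, Fgfbp3 (0.67 ± 0.18), Tmem181a (1.16 ± 0.12) and Pisd-ps3 (1.18 ± 0.25) were chosen after their values were seen, and no count of settings is given for them. In wild type Balb/C, Ide (-0.52) and Entpd4 (-0.58) fell. As background, a deletion in Nnt distinguishes C57BL/6J from other C57BL/6 mice, a segment with Mmrn1 is missing in some C57BL/6 colonies, and the copy number of the stretch with Ide and Fgfbp3 varies among C57BL/6J mice. Plac9a, Tmem254a and Gm9780 lie near one another on chromosome 14. In the order of annotated genes Tmem254a comes 1 place and Gm9780 6 places after Plac9a. Tmem254a rose by 1.38 ± 0.18 and gave 0.58 in the deficient mice, without passing the test of a difference of responses (adjusted p = 0.405, limma). It also rose in Balb/C (1.04). Whether the 3 wild type AngII samples came from mice of another origin was not tested. Such a difference and AngII cannot be told apart, at these genes or at any other gene of this comparison. No other C57Bl/6J wild type mouse on AngII was measured. All 12 samples carried the same strain label. The part of such a difference in the results below was not tested either. Deficient and Balb/C values came from other samples, and they are printed beside only some of the genes.

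**Figure D1:**
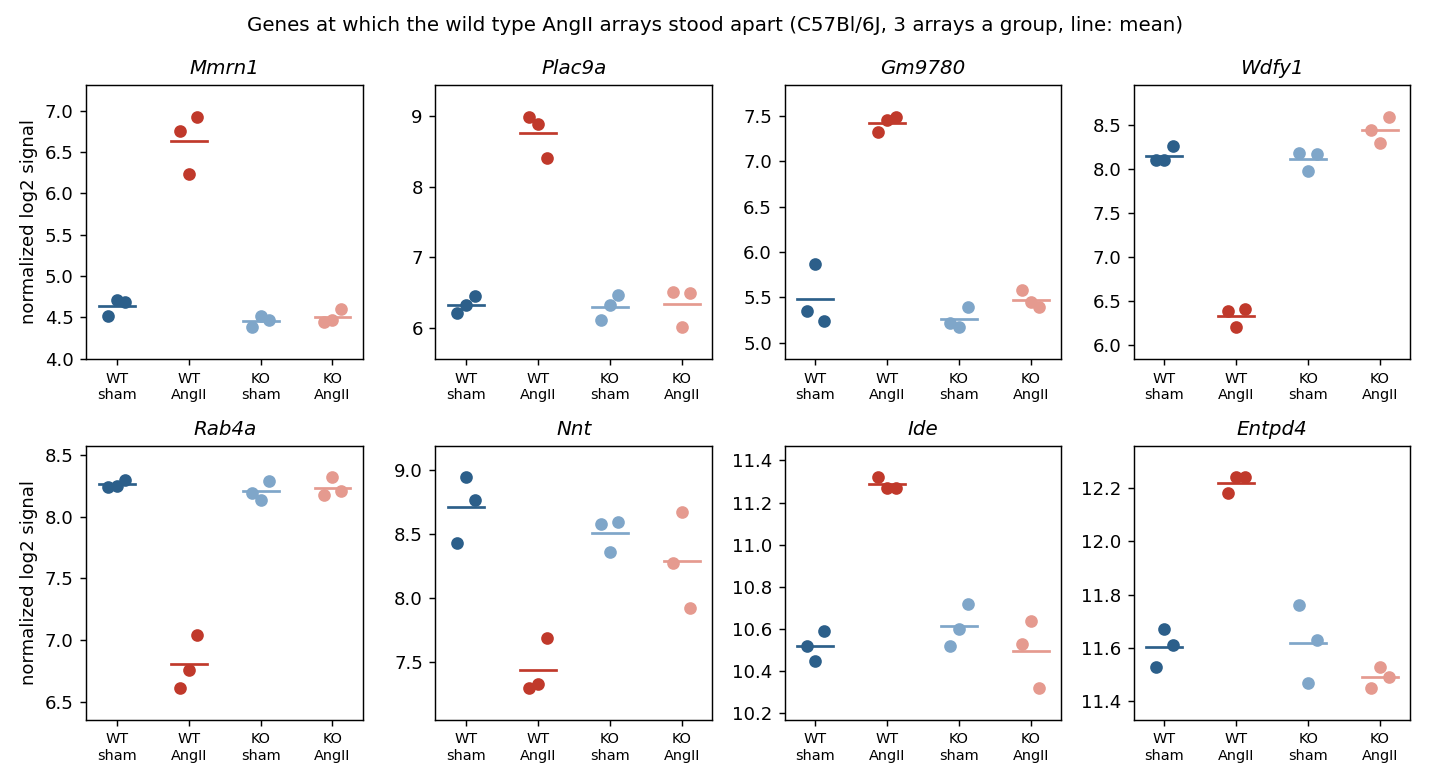
Normalized log2 signal (y axis) of 8 genes on the 12 C57Bl/6J arrays, by group (x axis), 1 point an array and a line at each group's mean. The 3 wild type AngII points lie outside the points of the 9 other arrays in every panel, by 0.23 (Nnt) to 1.89 (Plac9a).

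In all, 856 of 10816 genes (7.91%) were called, of which 398 rose (3.68%) and 458 fell (4.23%). Counted by probe, 1301 of the 20319 kept probes passed (6.4%), and 188 of these had no listed gene. The differences were mostly modest: the median was 0.70 among genes that rose and -0.62 among those that fell, and 157 genes changed at least 2-fold (96 higher, 61 lower). The smallest called difference was 0.34. The values of the groups did not overlap for 853 of the called genes, and for 29.2% of all genes tested. The count was sensitive to single arrays: it was 544 without AngII replicate 1, 458 without AngII replicate 2, 504 without sham replicate 1 and 492 without sham replicate 3. For 375 called genes there were 544 further kept probes, and 462 of these had the same sign as the probe used. The median of all genes was -0.02, against which the medians of the gene groups below should be read, as their called counts should be against 7.91%.

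**Figure D2:**
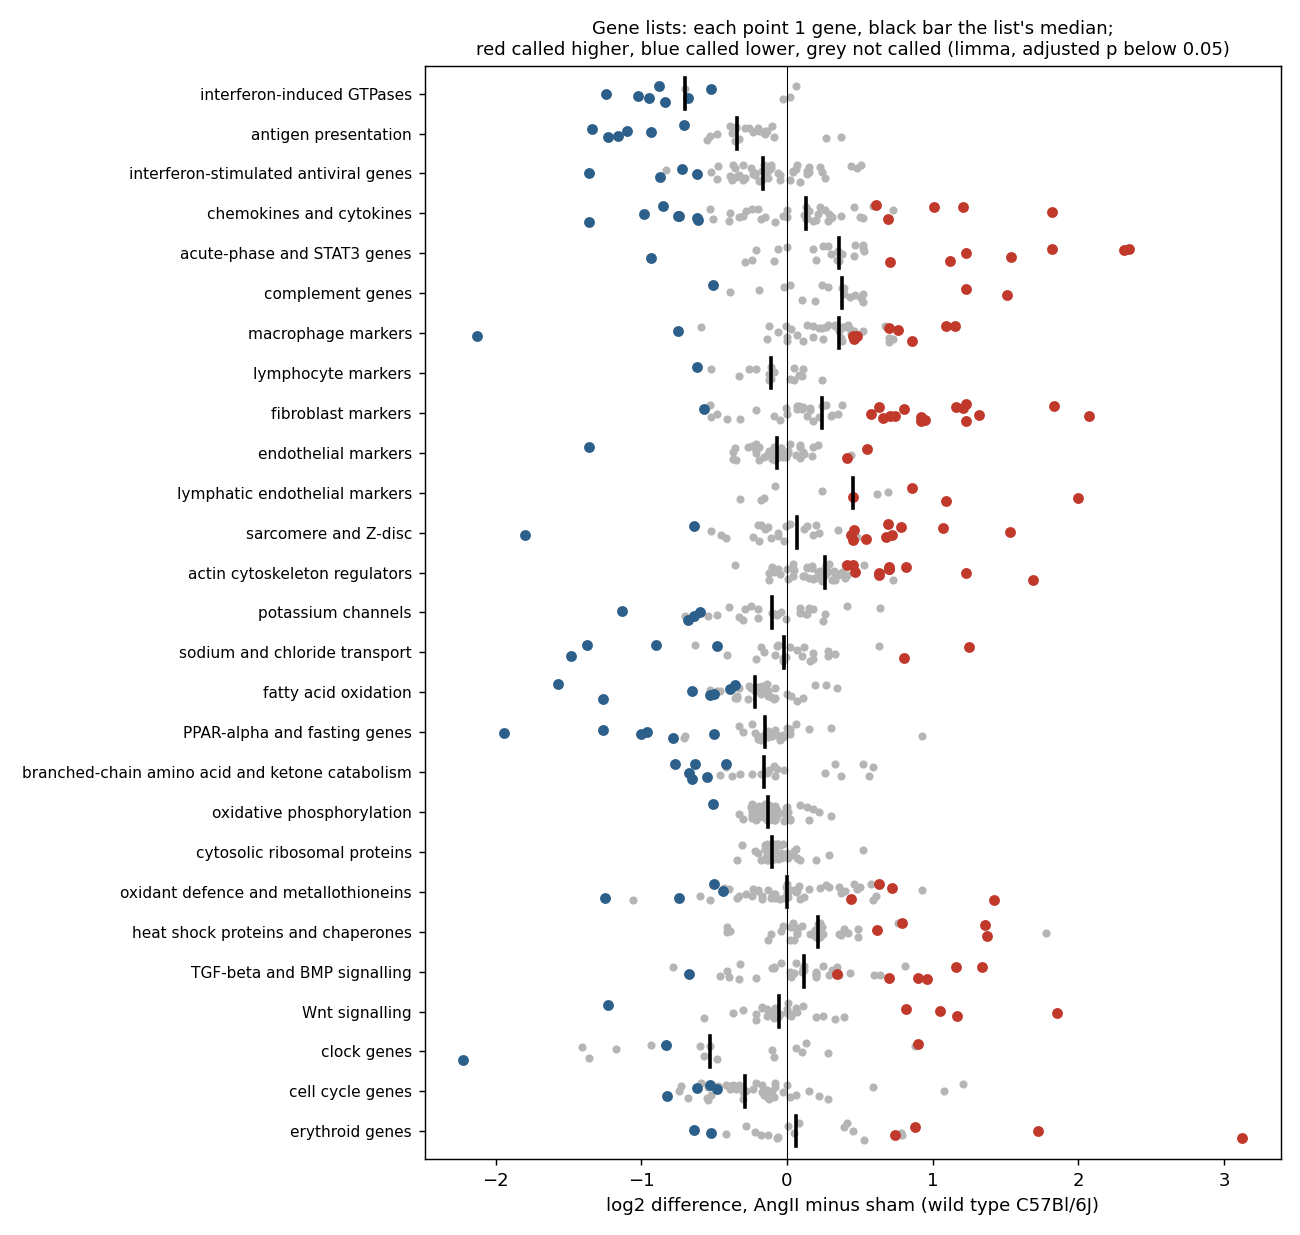
Log2 difference, AngII minus sham in wild type C57Bl/6J (x axis), of each measured gene (points) in 27 gene lists (y axis), with the list's median as a black bar. Red genes were called higher, blue genes called lower and grey genes not called; the interferon-induced GTPases have the lowest median (-0.70) and Slc4a1 of the erythroid genes the highest value (3.12).

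The called genes of the 3 interferon lists fell. Interferons are cytokines that switch on antiviral and antigen-presenting genes through STAT and IRF transcription factors, and interferon gamma in particular induces large GTPases (the GBP and IRG families) that attack intracellular pathogens. Of 11 measured interferon-induced GTPases 0 rose and 7 fell (median -0.70). Of 28 antigen presentation genes 0 rose and 6 fell (median -0.34), and 26 of the 28 differences were negative. Of 52 interferon-stimulated antiviral genes 0 rose and 4 fell (median -0.16), a called share of 7.69% that is near the 7.91% over all genes. In bulk tissue, fewer cells of a type and less RNA per cell cannot be told apart.

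Because the GTPases had the lowest median, the promoters of those called are shown for the 5 with an entry in the promoter table (RefSeq, GRCm38.p6, from 250 bases before to 50 after the gene's start, strand +). Capitals mark 2 copies of GAAA spaced by 2 bases, the core of the interferon-stimulated response element, and TTCNNNGAA, the core of the gamma-activated site, both read on either strand. The Igtp and Irgm2 promoters hold both side by side, and in Gbp3 there are 2 overlapping matches of the first. A second listed Gbp3 promoter, chr3:142560106-142560405, holds neither and is not printed.
Gbp2, chr3:142620413-142620712: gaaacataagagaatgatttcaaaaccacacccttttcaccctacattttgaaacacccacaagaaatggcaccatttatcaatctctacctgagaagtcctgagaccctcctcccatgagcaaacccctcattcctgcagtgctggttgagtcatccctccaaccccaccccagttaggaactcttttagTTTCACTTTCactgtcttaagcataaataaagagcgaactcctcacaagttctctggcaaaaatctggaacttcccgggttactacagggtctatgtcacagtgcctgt
Gbp3, chr3:142559794-142560093: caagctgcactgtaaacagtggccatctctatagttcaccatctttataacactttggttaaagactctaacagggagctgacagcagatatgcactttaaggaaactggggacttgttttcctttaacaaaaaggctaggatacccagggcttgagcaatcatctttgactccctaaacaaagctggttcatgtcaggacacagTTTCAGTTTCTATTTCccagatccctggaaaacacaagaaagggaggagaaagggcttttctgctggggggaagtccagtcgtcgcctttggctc
Gbp7, chr3:142530086-142530385: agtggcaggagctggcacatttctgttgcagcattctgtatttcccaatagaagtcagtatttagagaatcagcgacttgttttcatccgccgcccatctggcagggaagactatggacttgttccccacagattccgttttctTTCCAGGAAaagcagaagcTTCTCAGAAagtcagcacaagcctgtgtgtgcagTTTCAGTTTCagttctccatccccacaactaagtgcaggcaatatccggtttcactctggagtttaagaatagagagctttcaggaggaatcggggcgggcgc
Igtp, chr11:58199306-58199605: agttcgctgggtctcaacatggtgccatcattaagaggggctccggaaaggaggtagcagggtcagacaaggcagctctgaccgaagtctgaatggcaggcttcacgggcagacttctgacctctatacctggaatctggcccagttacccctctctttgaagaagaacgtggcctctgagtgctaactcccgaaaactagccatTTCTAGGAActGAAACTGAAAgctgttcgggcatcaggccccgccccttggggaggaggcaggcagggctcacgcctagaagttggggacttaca
Irgm2, chr11:58214727-58215026: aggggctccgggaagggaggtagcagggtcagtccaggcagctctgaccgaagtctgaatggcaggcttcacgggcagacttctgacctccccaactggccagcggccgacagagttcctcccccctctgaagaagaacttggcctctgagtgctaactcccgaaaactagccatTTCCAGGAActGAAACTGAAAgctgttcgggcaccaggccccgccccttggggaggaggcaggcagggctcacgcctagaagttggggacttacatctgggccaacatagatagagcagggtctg

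The GAAA pair was found in 5 of these 5 genes, at positions -64 to -34 relative to the gene's start, and in 7 of the 8 GTPases with a promoter entry (87.5%), called or not. It was found in 3.68% of the 8740 tested genes with an entry and in 4.74% of the genes that fell. In the antiviral list 17 of 41 genes with an entry held it (41.5%), and so did 1 of the 4 antiviral genes that fell (25%), so it was also common among antiviral genes that were not called. The letters TTCNNNGAA were in 3 of the 5 and in 8.42% of the tested genes with an entry, and the letters of the first motif contain no full copy of the second. The promoters are not independent sequences: those of Igtp and Irgm2, neighbours on chromosome 11, share a run of 61 bases. Of 3 antigen presentation genes that fell and had an entry, 0 held either motif in this window. A match describes the sequence and was not tested as a binding site.

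Among the GTPases, Igtp (also called Irgm3, which sits on endoplasmic reticulum and lipid droplets) read 8.18, 8.16 and 8.36 in AngII and 9.25, 9.68 and 9.49 in sham. It fell by 1.24 on the log2 scale (SE 0.17, adjusted p = 0.00132, limma), and every AngII array was below every sham array. Gbp3, a guanylate-binding protein, read 8.20, 8.66 and 8.56 against 9.27, 9.34 and 9.87 and fell (-1.02 ± 0.20, adjusted p = 0.0101). Here too the groups did not overlap. Irgm2 (-0.95 ± 0.22), the giant GTPase Gvin1 (-0.88 ± 0.22), Gbp7 (-0.84 ± 0.24), the antiviral Mx2 (-0.68 ± 0.17) and Gbp2 (-0.52 ± 0.12) fell with adjusted p between 0.0196 and 0.0487. Irgm2 passed in 14, Gvin1 in 15, Gbp7 in 9 and Mx2 in 14 of 18 settings, and the losses were mostly on leaving out 1 array. Gbp2 lies outside the rule by which genes were named and is included to complete the 7, with no count of settings. Irgm1, a regulator of the other IRG proteins and the brightest member, was not called (0.06 ± 0.16), nor was Gbp10 (0.02 ± 0.15), and both passed in 0 of 18 settings.

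In antigen presentation 5 of the 6 genes that fell belong to the MHC class I pathway, and the remaining one, Cd1d1, encodes a class I-like molecule. H2-Q8, a nonclassical class I heavy chain, read 5.83, 5.61 and 6.04 in AngII and 6.79, 7.27 and 7.45 in sham (-1.34 ± 0.17, adjusted p = 0.00114, limma). Its near relative H2-Q6 fell by 1.16 on the log2 scale (SE 0.21), and because class I genes are close copies, signal between them may be shared. The classical heavy chain H2-K1 fell (-0.93 ± 0.14, adjusted p = 0.00317), and its other kept probe gave -1.12 ± 0.21. Nlrc5, the transactivator of class I genes, read 5.67, 5.40 and 5.76 against 6.70, 7.08 and 6.72 (-1.23 ± 0.21, adjusted p = 0.00495). Tap1, which with Tap2 carries peptides into the endoplasmic reticulum, read 5.53, 5.37 and 5.77 against 6.41, 6.63 and 6.93 (-1.10 ± 0.19, adjusted p = 0.00477). For H2-Q8, Nlrc5 and Tap1 all AngII values were below all sham values. Cd1d1 presents lipids to NKT cells and fell less (-0.71 ± 0.19, adjusted p = 0.0422, passing in 11 of 18 settings). The bright members were not called: B2m, the class I light chain, gave -0.35 ± 0.14 and H2-D1 -0.35 ± 0.15 (adjusted p = 0.142 and 0.161), with sham replicate 1 overlapping the AngII arrays in H2-D1.

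Of the antiviral list, the chemokine Cxcl9, induced by interferon gamma, read 7.40, 7.41 and 7.11 in AngII and 8.37, 8.59 and 9.03 in sham, with no overlap (-1.36 ± 0.18, adjusted p = 0.00127, limma). The immunoproteasome subunits Psmb9 (-0.87 ± 0.15, adjusted p = 0.00481) and Psmb8 (-0.62 ± 0.13, adjusted p = 0.0129, passing in 17 of 18 settings) fell together. Ifit3, which binds viral RNA complexes, fell by 0.72 on the log2 scale (SE 0.15, adjusted p = 0.012), but its second kept probe gave -0.23 ± 0.22 and the mean of its probes did not pass. Most other members were not called, among them the brightest, Ifitm3 (-0.12 ± 0.14).

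None of these interferon genes passed the test of a difference between the wild type and the deficient response, and their values stand side by side. The GTPase median was -0.47 in Bmx deficient C57Bl/6J, with 0 called, and -0.13 in Balb/C. In antigen presentation it was 0.00 in the deficient mice and -0.15 in Balb/C. H2-K1, for example, gave -0.01 in deficient mice, and Igtp -0.50 there and -0.68 in Balb/C. Lymphocyte markers were sparse: of 36 on the array 17 were measured, and the defining T and B cell genes Cd3d, Cd3e, Cd4, Cd8a and Cd79a were not kept. Of the 17 measured, 0 rose and 1 fell (Ccl5, a T cell chemokine, -0.62 ± 0.11, passing in 15 of 17 settings), and their summed linear signal was 2398 to 2743 in AngII and 2371 to 2694 in sham. Their part in the fall of the interferon genes was not tested.

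**Figure D3:**
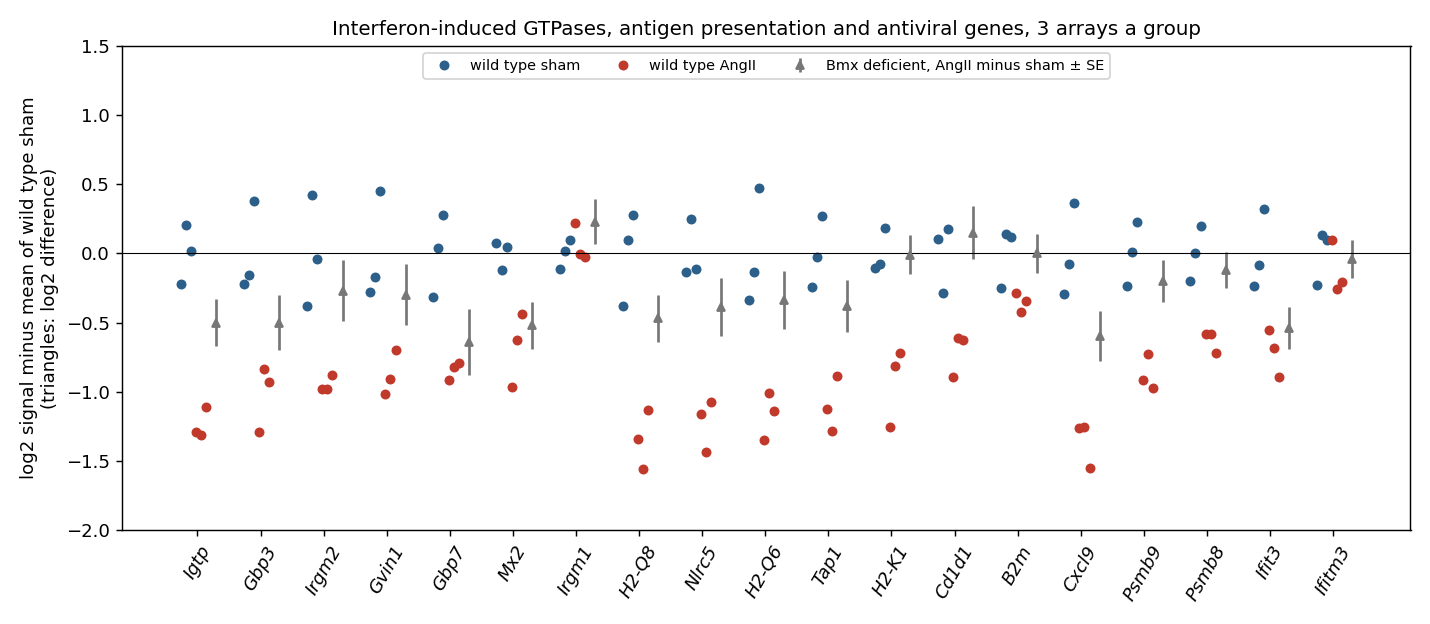
Circles give the log2 signal of each wild type C57Bl/6J array minus the mean of the sham arrays (y axis) for genes of 3 interferon lists (x axis), with sham in blue and AngII in red. Grey triangles give the AngII minus sham difference ± SE in Bmx deficient mice; red and blue do not overlap for the called genes, while Irgm1 and Ifitm3 show overlap.

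Chemokines and cytokines moved in both directions, 5 up and 7 down of 47, with a median of 0.13. Tnfrsf12a, the receptor of the cytokine TWEAK, read 11.43, 11.39 and 11.74 in AngII and 9.63, 9.87 and 9.61 in sham and rose (1.82 ± 0.32, adjusted p = 0.00567, limma). The monocyte attractant Ccl8 rose from 4.65, 4.92 and 5.30 to 6.04, 5.76 and 6.69 (1.21 ± 0.24, adjusted p = 0.00968). Both genes were separated between the groups. Ccl9 (1.01 ± 0.28, passing in 10 of 18 settings), Cxcl14 (0.69 ± 0.16, in 14) and the TNF receptor Tnfrsf1a (0.61 ± 0.17, in 11) also rose. Those that fell included the death ligand Tnfsf10 (TRAIL, -0.98 ± 0.14, adjusted p = 0.00236) and Il15, a growth factor of NK and memory T cells (-0.74 ± 0.15, adjusted p = 0.0108). The eosinophil attractant Ccl11 (-0.85 ± 0.21, in 14 of 18) and the monocyte receptor Ccr2 (-0.75 ± 0.19, in 12 of 18) fell less securely. Il15 read 10.36, 10.36 and 10.73 against 11.26, 11.11 and 11.29, a drop seen on every array.

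Acute-phase and STAT3 genes rose, 7 of 29, with 1 that fell and a median of 0.36. Serpina3n, a secreted inhibitor of serine proteases, read 10.11, 9.81 and 9.91 in AngII against 7.70, 7.75 and 7.46 in sham (2.31 ± 0.17, adjusted p = 2.51e-05, limma). It is also 1 of the 6 genes at which the wild type AngII arrays stood apart, although it rose by 2.34 in Balb/C and gave 0.90 in the deficient mice. Lipocalin 2 (Lcn2), which binds iron-carrying siderophores, read 8.03, 7.40 and 7.38 against 6.35, 5.77 and 6.07 (1.54 ± 0.22, adjusted p = 0.00215). Haptoglobin (Hp) rose by 1.12 ± 0.24 (adjusted p = 0.015, passing in 17 of 18 settings) and gave 0.07 in the deficient mice and -0.24 in Balb/C. The Hp probe used was itself close to background (mean 5.13 over the 12 arrays), as were its other kept probes (5.03 and 4.86), which gave 0.33 ± 0.17 and 0.08 ± 0.24. The kinase Pim3 was the member that fell (-0.93 ± 0.18, adjusted p = 0.00946). In the complement list 2 of 19 rose, both of them copies of C4: C4a by 1.51 ± 0.22 and C4b by 1.23 ± 0.23, which are near-identical genes whose signals may be shared. Colec11, a lectin of the complement system, fell (-0.51 ± 0.13, passing in 13 of 18 settings).

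Macrophage markers were mostly higher, with 8 of 45 called up and 2 down and a median of 0.36, and their summed linear signal was 28181 to 33250 in AngII against 21427 to 23690 in sham. Cd68, Itgam, Itgax and Ptprc, which define the lineage, were not kept. The membrane proteins Ms4a6d (1.15 ± 0.20, adjusted p = 0.00528, limma) and Clec4a3 (0.76 ± 0.14, adjusted p = 0.00847) and lysozyme Lyz2 (0.86 ± 0.17, adjusted p = 0.00946) rose under every setting. Markers of resident macrophages rose less securely, with Lyve1 at 1.09 ± 0.28 (11 of 18 settings) and the mannose receptor Mrc1 at 0.48 ± 0.13 (8 of 18). The member that fell furthest was Retnla, a marker of alternative activation that fat and other cells also make. It read 4.69, 4.95 and 6.40 in AngII and 7.34, 7.66 and 7.43 in sham (-2.13 ± 0.36, adjusted p = 0.00481), so that AngII replicate 3 lay nearest to the sham arrays without reaching them. Retnla gave -0.25 in deficient mice and -0.27 in Balb/C. Neutrophil and mast cell markers were little changed, with 1 of 15 higher (Lcn2), and Ly6g, Mpo and Elane, which define neutrophils, were not kept.

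Fibroblast markers were the cell type list with most calls, 16 of 43 higher and 1 lower, with a median of 0.24 and a summed linear signal of 93793 to 107842 in AngII against 83054 to 88099 in sham. Beside secreted matrix proteins the list held regulators. Pi16, a marker of adventitial fibroblasts, read 10.78, 10.55 and 10.01 against 9.08, 9.20 and 9.11 (1.32 ± 0.16, adjusted p = 0.00084, limma). Meox1, a homeobox transcription factor of activated fibroblasts, read 10.45, 10.05 and 9.64 against 8.63, 9.08 and 8.76 (1.23 ± 0.18, adjusted p = 0.00228). In both genes AngII replicate 1 was the highest array and replicate 3 the lowest of the AngII arrays, and neither overlapped with sham. The same order was seen in Mfap4, an elastic fibre protein, with 9.64, 8.98 and 7.59 against 7.24, 7.17 and 6.32 (1.83 ± 0.43, passing in 14 of 18 settings). Itgbl1 rose by 1.23 ± 0.23 and Pamr1 by 1.21 ± 0.27, and the opioid precursor Penk was the member that fell (-0.57 ± 0.14, in 9 of 17 settings), being undetected in AngII. Lymphatic endothelial markers (4 called higher out of 11, median 0.45) had a summed linear signal of 4470 to 5151 in AngII and 3744 to 4228 in sham. Among them was Pdpn (podoplanin, also made by activated fibroblasts), which rose by 0.86 ± 0.15 (adjusted p = 0.00482). The remaining calls in that list were less secure: Mmrn1 is described above, Lyve1 is also a macrophage gene, and the probes of Stab1 disagreed, since a second kept probe passed in the opposite direction (0.45 ± 0.11 against -0.41 ± 0.11). The defining gene Ccl21a was not called (-0.18 ± 0.18). Of 50 blood endothelial markers 2 rose and 1 fell (median -0.07), and their summed linear signal was 49882 to 55633 in AngII and 56916 to 60018 in sham. What part these shifts between cell markers had in other results was not tested.

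Genes of the myocyte's Z-disc, where actin filaments are anchored, rose more often than they fell. Of 34 sarcomere and Z-disc genes 10 rose and 2 fell (median 0.07), and the brightest, troponin C (Tnnc1, -0.01 ± 0.09) and the light chain Myl3 (-0.11 ± 0.10), were not called. Ky, a transglutaminase-like protein that holds filamin C at the Z-disc, read 8.49, 8.61 and 8.47 in AngII and 10.30, 10.42 and 10.27 in sham. It fell by 1.80 on the log2 scale (SE 0.14, adjusted p = 2.57e-05, limma), with 3 tight values on each side. Ky also fell in Balb/C (-2.20) and gave -1.21 in the deficient mice. Its partner filamin C (Flnc) rose from 12.25, 12.35 and 12.32 to 12.99, 13.07 and 12.97 (0.70 ± 0.12, adjusted p = 0.00497). Myotilin (Myot), which crosslinks actin at the Z-disc, rose by 1.07 ± 0.16 (adjusted p = 0.00264) and the intermediate filament desmin (Des) by 0.68 ± 0.11 (adjusted p = 0.00471). Synpo2l, an actin-bundling protein, rose by 1.53 ± 0.35 but passed in 14 of 18 settings. The titin cap Tcap fell (-0.64 ± 0.18, adjusted p = 0.0472, in 8 of 18).

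The called regulators of actin rose. Of 57, 11 rose and 0 fell, and the median was 0.26. Enah, which speeds filament growth by holding off capping proteins, read 8.42, 8.54 and 9.51 in AngII against 7.12, 7.40 and 6.89 in sham (1.69 ± 0.31, adjusted p = 0.00752, limma), while its 2 dimmer kept probes gave 0.22 ± 0.13 and 0.33 ± 0.12. Abra, which activates SRF target genes, rose by 1.23 ± 0.31 (passing in 12 of 18 settings), the regulatory light chain Myl12a by 0.82 ± 0.13 (adjusted p = 0.00389), the nonmuscle alpha-actinin Actn1 by 0.70 ± 0.13 and the Arp2/3 subunit Arpc2 by 0.70 ± 0.12. Beta-actin (Actb) was not called (0.26 ± 0.11). Outside these lists Mical3, a flavoprotein of vesicle traffic related to actin-oxidizing enzymes, rose by 1.44 ± 0.17 (adjusted p = 0.000667) with 0.07 in Balb/C and 0.28 ± 0.20 on a dimmer probe, and alpha-tubulin Tuba1a by 0.74 ± 0.14. Among integrin and adhesion genes 4 of 36 rose, including the fibronectin receptor chain Itga5 (0.72 ± 0.15, in 17 of 18 settings).

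Channels and transporters of the myocyte were lower more often than higher. Of 29 potassium channel genes 0 rose and 4 fell (median -0.10). Kcnv2, a silent subunit that modifies Kv2 channels, read 6.69, 6.62 and 7.32 in AngII and 8.28, 7.84 and 7.89 in sham (-1.13 ± 0.20, adjusted p = 0.00582, limma). Kcnh2, the pore of the rapid delayed rectifier, fell by 0.68 on the log2 scale (SE 0.13, adjusted p = 0.00866). A second kept probe of Kcnh2 gave -0.71 ± 0.13, but another gave 0.31 ± 0.28, and the mean of its probes did not pass. Kcnd2, a pore of the transient outward current (-0.64 ± 0.14, passing in 14 of 18 settings), and Kcnj5, of the acetylcholine-gated channel (-0.60 ± 0.15, in 13), also fell.

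Of 28 sodium and chloride transport genes 2 rose and 4 fell. Ano10, of the anoctamin family, read 8.20, 8.05 and 8.72 in AngII and 9.75, 9.92 and 9.75 in sham (-1.48 ± 0.16, adjusted p = 0.000381, limma). The water channel Aqp4 (-1.37 ± 0.27, adjusted p = 0.00946) and the anion exchanger Slc26a6, a main chloride-bicarbonate exchanger of the myocyte (-0.90 ± 0.17, adjusted p = 0.00796), fell as well. These 3 also fell in Balb/C, with -1.49, -0.93 and -1.44, and gave -1.26, -1.14 and -1.04 in the deficient mice. Clic5, which links membranes to the cytoskeleton, rose from 8.12, 8.04 and 7.71 to 9.14, 9.32 and 9.15 (1.25 ± 0.14, adjusted p = 0.000612), and all 3 AngII arrays were above all sham arrays. Aqp8, a channel for water and peroxide, rose by 1.69 ± 0.24 (adjusted p = 0.00192). Calcium handling had 1 of 34 higher and 2 lower, and the calcium pump Atp2a2 was not called (0.02 ± 0.10). The channel subunit Cacnb2 fell on the probe used (-0.73 ± 0.18, in 12 of 18 settings), whereas its 3 other kept probes gave between 0.00 and 0.18.

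The called enzymes of fatty acid breakdown fell. Of 37 fatty acid oxidation genes 0 rose and 7 fell (median -0.22), and 30 differences were negative. Of 31 genes of the PPAR-alpha and fasting response 0 rose and 6 fell (median -0.15). Hadha, the alpha subunit of the trifunctional protein of long-chain beta-oxidation, read 7.28, 7.63 and 6.91 in AngII and 8.44, 9.32 and 8.77 in sham (-1.57 ± 0.22, adjusted p = 0.00195, limma). It was read by 1 kept probe. Every AngII array was below every sham array. Acads, the short-chain dehydrogenase, fell by 0.50 on the log2 scale (SE 0.09, adjusted p = 0.00795) while its other probe gave -0.04 ± 0.12. Echs1 (-0.53 ± 0.12, passing in 14 of 18 settings), the thioesterase Acot1 (-1.26 ± 0.35, in 10) and the carnitine carrier Slc22a5 (-0.39 ± 0.11, in 9) fell less securely. The bright Acadm was not called (-0.27 ± 0.13). The uncoupling protein Ucp3, a PPAR-alpha target, read 6.60, 6.30 and 4.96 against 8.49, 7.59 and 7.61 (-1.94 ± 0.38, adjusted p = 0.00925), and its other kept probe gave -1.50 ± 0.24. AngII replicate 3 was the lowest Ucp3 array. Slc25a42, which carries coenzyme A into mitochondria, fell from 9.90, 9.73 and 9.91 to 9.06, 8.87 and 8.74 (-0.96 ± 0.12, adjusted p = 0.00114).

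Called genes of branched-chain amino acid breakdown also fell, with 0 of 24 higher and 6 lower and a median of -0.16. The calls covered the successive steps of the pathway: the transaminase Bcat2 (-0.55 ± 0.10, adjusted p = 0.00739, limma), the dehydrogenase subunits Bckdha (-0.67 ± 0.12, adjusted p = 0.00582) and Dbt (-0.65 ± 0.15, passing in 15 of 18 settings), and the phosphatase Ppm1k, which activates that complex (-0.77 ± 0.13, in 17). Further down, the isovaleryl dehydrogenase Ivd read 11.58, 11.75 and 11.66 in AngII and 12.32, 12.27 and 12.29 in sham (-0.63 ± 0.09, adjusted p = 0.00236), and the propionyl carboxylase chain Pccb gave -0.42 ± 0.09 (in 13 of 18). No Ivd value of one group reached the other. Pdp2, the phosphatase that activates pyruvate dehydrogenase, fell from 11.75, 11.30 and 11.30 to 10.32, 10.40 and 10.08 (-1.18 ± 0.16, adjusted p = 0.00184). Genes of the respiratory chain did not follow at this size: of 71 oxidative phosphorylation genes 0 rose and 1 fell (Cox4i2, -0.51 ± 0.13), but 61 of 71 differences were negative, with a median of -0.13.

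Glycolysis and glycogen genes were split, 3 up and 3 down of 34. The platelet phosphofructokinase Pfkp read 10.58, 10.25 and 9.89 in AngII and 9.16, 8.88 and 8.94 in sham (1.25 ± 0.17, adjusted p = 0.00154, limma). Pgam1, the broadly expressed phosphoglycerate mutase, rose from 7.70, 7.45 and 7.74 to 8.95, 8.64 and 8.55 (1.09 ± 0.14, adjusted p = 0.00107), and the glycogen primer Gyg by 0.66 ± 0.12. The muscle phosphofructokinase Pfkm fell slightly (-0.38 ± 0.09, passing in 10 of 18 settings), with other probes at -0.35 and 0.09. The phosphorylase kinase subunit Phkg1 fell by 1.35 on the log2 scale (SE 0.26, adjusted p = 0.00946), and the muscle fructose bisphosphatase Fbp2, named by size and in no list, by 1.42 (SE 0.21, adjusted p = 0.00215). Pfkp and Pgam1 are broadly expressed forms, while Pfkm, Phkg1 and Fbp2 are the forms of muscle. Uck2, the uridine-cytidine kinase of pyrimidine salvage, was among the largest rises, from 9.73, 9.44 and 9.82 to 11.26, 11.68 and 11.16 (1.71 ± 0.16, adjusted p = 0.000136). Gfpt2, the entry enzyme of hexosamine synthesis, rose by 0.89 ± 0.17 (adjusted p = 0.00891), and the mitochondrial folate enzymes Aldh1l2 (-1.16 ± 0.24, adjusted p = 0.0135) and Shmt2 (-0.55 ± 0.12, in 13 of 18) fell.

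**Figure D4:**
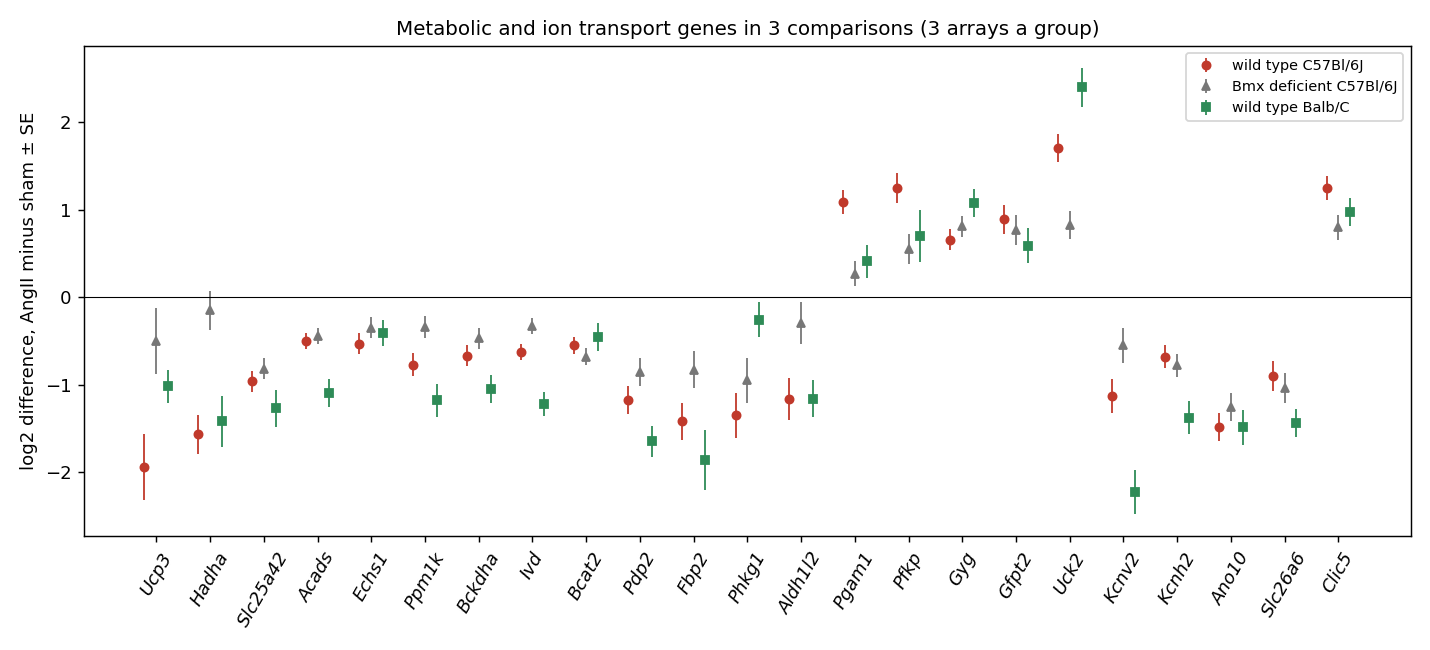
Log2 difference, AngII minus sham, ± SE (y axis) for 23 genes of metabolism and ion transport (x axis) in wild type C57Bl/6J (red circles), Bmx deficient C57Bl/6J (grey triangles) and wild type Balb/C (green squares), 3 arrays a group. Genes from Ucp3 to Aldh1l2 lie below 0 in wild type C57Bl/6J and those from Pgam1 to Uck2 above it; the arrays of the strains were normalized separately.

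Oxidant defence genes moved both ways, 4 up and 4 down of 55, with a median of 0.00. The 4 that fell were glutathione transferases, with Gstt1 at -1.25 ± 0.16 (6.86, 6.34 and 6.82 in AngII against 8.05, 7.84 and 7.88 in sham, adjusted p = 0.00114, limma) and Gstm7 at -0.74 ± 0.14 (adjusted p = 0.00786). Gstm2 and Gstk1 passed in 13 and 12 of 18 settings, at -0.50 ± 0.12 and -0.44 ± 0.11. The NADPH oxidase Nox4, which makes hydrogen peroxide, read 6.82, 6.42 and 5.93 against 5.17, 4.85 and 4.89 and rose (1.42 ± 0.30, adjusted p = 0.0131, in 17 of 18). Extracellular superoxide dismutase Sod3 rose by 0.72 ± 0.11 (adjusted p = 0.00356). These 4 transferases were lower on all AngII arrays than on any sham array, and the dismutase and the oxidase higher.

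Of 41 heat shock proteins and chaperones 4 rose and 0 fell (median 0.21), a called share of 9.76% against 7.91% over all genes. Hspa1l, an HSP70 whose gene lies beside those of the inducible forms, rose from 7.63, 8.10 and 7.68 to 8.99, 9.18 and 9.33 (1.36 ± 0.27, adjusted p = 0.00955, limma). Hsp90aa1 (1.37 ± 0.36), the co-chaperone Bag2 (0.79 ± 0.17) and Hspb1 (0.62 ± 0.17) passed in 10, 16 and 10 of 18 settings. Among single genes of muscle ubiquitin ligases, atrogin-1 (Fbxo32) fell (-0.85 ± 0.13, adjusted p = 0.00255), as did the Kelch protein Klhl38, induced in wasting muscle (-1.42 ± 0.22, adjusted p = 0.00284). Fbxo32 read 10.01, 9.74 and 9.56 against 10.77, 10.53 and 10.56, and the groups did not overlap. Of the whole list of 43 proteasome and muscle ubiquitin genes 0 rose and 3 fell (median 0.05), a called share of 6.98% that is not above the 7.91% over all genes.

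Within TGF-beta and BMP signalling 6 of 39 genes rose and 1 fell. Those that rose included binding proteins that limit activins and BMPs: Fstl3 read 6.01, 6.50 and 6.36 in AngII and was undetected in sham (at least 2.43-fold higher, adjusted p = 0.00739, limma), and Fstl1 rose by 1.16 ± 0.20 (adjusted p = 0.00528). The ligands Tgfb3 (0.70 ± 0.16) and the activin chain Inhba (0.96 ± 0.27) and the BMP antagonist Nbl1 (0.90 ± 0.20) passed in 13, 9 and 14 of 18 settings. The activin and myostatin receptor Acvr2b fell from 8.74, 8.85 and 8.58 to 8.12, 8.09 and 7.93 (-0.67 ± 0.12, adjusted p = 0.00601). Secreted and intracellular inhibitors also rose in Wnt signalling (4 up, 1 down of 34): Sfrp1, which binds Wnt ligands, by 1.17 ± 0.19 (adjusted p = 0.00389), Nkd2, which binds Dishevelled, by 1.05 ± 0.18 (adjusted p = 0.00495) and the Dickkopf family member Dkk3 by 1.85 ± 0.34 (adjusted p = 0.00739). Dkk3 is also an atrial marker. Lgr6, a receptor for R-spondins that enhance Wnt signals, fell from 8.33, 8.38 and 8.30 to 7.01, 7.02 and 7.31 (-1.23 ± 0.13, adjusted p = 0.000266), with values close together on each side. The coreceptor Lrp5 rose by 0.82 ± 0.16 on the probe used (in 17 of 18 settings), but its other kept probes gave -0.02 ± 0.20 and -0.07 ± 0.19. Among 60 genes of growth factors and their receptors 3 rose and 1 fell (median -0.02), a called share of 6.67% that is not above the 7.91% over all genes. Those that rose included the EGF receptor ligand Hbegf (8.81, 8.96 and 9.21 against 8.02, 7.86 and 7.85, 1.09 ± 0.16, adjusted p = 0.00228) and Igf1 (0.92 ± 0.20, in 16 of 18).

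Of 22 renin-angiotensin, adrenergic and steroid receptor genes 1 rose and 2 fell (13.6%, against 7.91% over all genes), with a median of 0.00. The AT1 receptor gene Agtr1a, chosen after its values were seen, read 9.84, 10.30 and 10.06 in AngII and 10.69, 10.38 and 10.71 in sham. It was not called (-0.53 ± 0.17, adjusted p = 0.0752, limma) but fell in Balb/C (-1.24). Mas1, the receptor of angiotensin 1-7, fell by 0.58 on the log2 scale (SE 0.10, adjusted p = 0.00648, limma, passing in 15 of 17 settings) and was undetected in AngII, with 4.49 to 4.65 in AngII and up to 5.32 in sham. The alpha-1B adrenoceptor Adra1b fell by 0.55 (SE 0.13, in 9 of 18), and prostacyclin synthase Ptgis rose by 0.84 ± 0.20 (in 14 of 18).

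Several lists showed large single-gene spreads. Clock genes had the second lowest median, -0.53, with 1 higher and 2 lower of 19. Dbp, a PAR-domain factor with a strong daily rhythm, read 9.24, 10.42 and 9.92 in AngII and 13.12, 11.96 and 11.18 in sham (-2.22 ± 0.46, adjusted p = 0.0131, limma, passing in 17 of 18 settings), and the repressor Cry2 fell by 0.83 (SE 0.17, adjusted p = 0.0125). Npas2, a partner of Bmal1, rose by 0.90 ± 0.19 (in 16 of 18). Within each group Dbp spanned over 1 unit. The clock median was -0.53 in the deficient mice as well, and 0.27 in Balb/C. The hour of tissue collection is not given in the sources used here, and its part in these values was not tested.

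Among 46 cell cycle genes 0 rose and 4 fell, a called share of 8.70% against 7.91% over all genes, with a median of -0.29 and 37 negative differences, against 21 called higher and a median of 0.60 in Balb/C. The 4 were Cenpf (-0.82 ± 0.19), Cdk2 (-0.48 ± 0.11), E2f1 (-0.53 ± 0.14) and Rrm2 (-0.62 ± 0.13, undetected in AngII), and they passed in 13 of 17, 13 of 18, 9 of 18 and 13 of 17 settings. Each of the 4 lost its call under several settings. Cytosolic ribosomal proteins had 0 calls of 51, with a median of -0.10.

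Erythroid genes, which enter a ventricle sample with blood, held the largest rise among genes as read by their brightest probe. Among all kept probes a dimmer one of Rcan1, a calcineurin regulator, rose further (3.87 ± 0.32), against 1.67 on the Rcan1 probe used. Slc4a1, the band 3 anion exchanger of red cells, read 7.47, 8.41 and 9.22 in AngII and 4.75, 5.93 and 5.04 in sham (3.12 ± 0.39, adjusted p = 0.000994, limma), and Alas2, the erythroid haem synthesis enzyme, rose by 1.72 ± 0.43 (adjusted p = 0.0275, passing in 13 of 18 settings). AngII replicates 2 and 3 were above replicate 1 in both genes. Of 22 erythroid genes 4 rose and 2 fell (median 0.06). Beta-globin Hbb-bs gave 0.39 ± 0.16 and alpha-globin Hba-a1 0.53 ± 0.16, neither called, although the 5 dimmer kept probes of Hbb-bs gave 0.41 to 1.90 and 3 of them passed. The summed linear signal of the list was 138458 to 149948 in AngII and 88264 to 138973 in sham. Red cells or reticulocytes left in the tissue were not tested as a source. Slc4a1 gave 1.91 in the deficient mice and 0.63 in Balb/C.

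Some of the most changed genes stood in none of the lists. Spsb4, an adaptor of a ubiquitin ligase, read 9.24, 9.07 and 9.12 in AngII and 7.37, 7.40 and 7.35 in sham (1.77 ± 0.16, adjusted p = 0.0001, limma), with both groups tight. Pacsin1, a membrane-bending protein best known in neurons (1.55 ± 0.29, adjusted p = 0.00749), and Dct, a melanin synthesis enzyme also found in some heart cells (1.44 ± 0.28, adjusted p = 0.00981), rose. A second Pacsin1 probe of like brightness gave 0.12 ± 0.17 and a dimmer Spsb4 probe 0.21 ± 0.26. Lgals4, a galectin, fell from 9.94, 10.12 and 10.38 to 8.26, 8.61 and 8.60 (-1.65 ± 0.14, adjusted p = 7.55e-05). Its groups were more than 1 unit apart. Tbc1d10c, a GTPase-activating protein that inhibits Ras and calcineurin (-1.65 ± 0.26, adjusted p = 0.00335), and the methyltransferase Inmt (-1.48 ± 0.24, adjusted p = 0.00387) fell. The other kept Tbc1d10c probe, dimmer but detected on all 12 arrays, gave -0.12 ± 0.12. Zfp710 fell on the probe used (-1.37 ± 0.20), but a second probe of like brightness gave 0.05 ± 0.15.

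AngII against sham in the Bmx deficient mice, a comparison that shares no array with the wild type one, called 400 genes (3.7%). Of the 856 wild type calls, 779 (91.0%) had the same sign in the deficient mice and 168 (19.6%) were also called there with the same sign. The genes were selected in wild type, which favours larger values there, so sizes are not compared over the list. The difference of the responses was tested gene by gene, and 6 genes passed (0.0555%), while 971 had an unadjusted p below 0.05. In 4 of the 6 the wild type response was the higher. Wdfy1 differed by -2.16 (adjusted p = 0.000107, limma), Plac9a by 2.39 and Rab4a by -1.49 (each adjusted p = 0.00204), Gm9780 by 1.72 (adjusted p = 0.00562) and Tmem267, a membrane protein of unsettled role, by 1.56 (adjusted p = 0.0159). Mmrn1 (1.95) also passed, but it met the detection filter only through the wild type AngII arrays, where it was high. Its value is therefore no measured size, and its passing gives no support. These 6 are the genes described above as standing apart by more than 1 unit, with Tmem267 added and without Serpina3n (1.41, adjusted p = 0.0531). The wild type AngII values of Tmem267 also lay outside those of the 9 other arrays, by 0.11. Tmem267 moved in opposite directions, with 6.06, 6.25 and 6.34 in wild type AngII against 5.30, 5.21 and 5.55 in sham, and a difference of -0.69 in the deficient mice. Cited2, a transcriptional coregulator, did likewise (-0.58 ± 0.13 and 0.58) without passing (adjusted p = 0.0531).

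**Figure D5:**
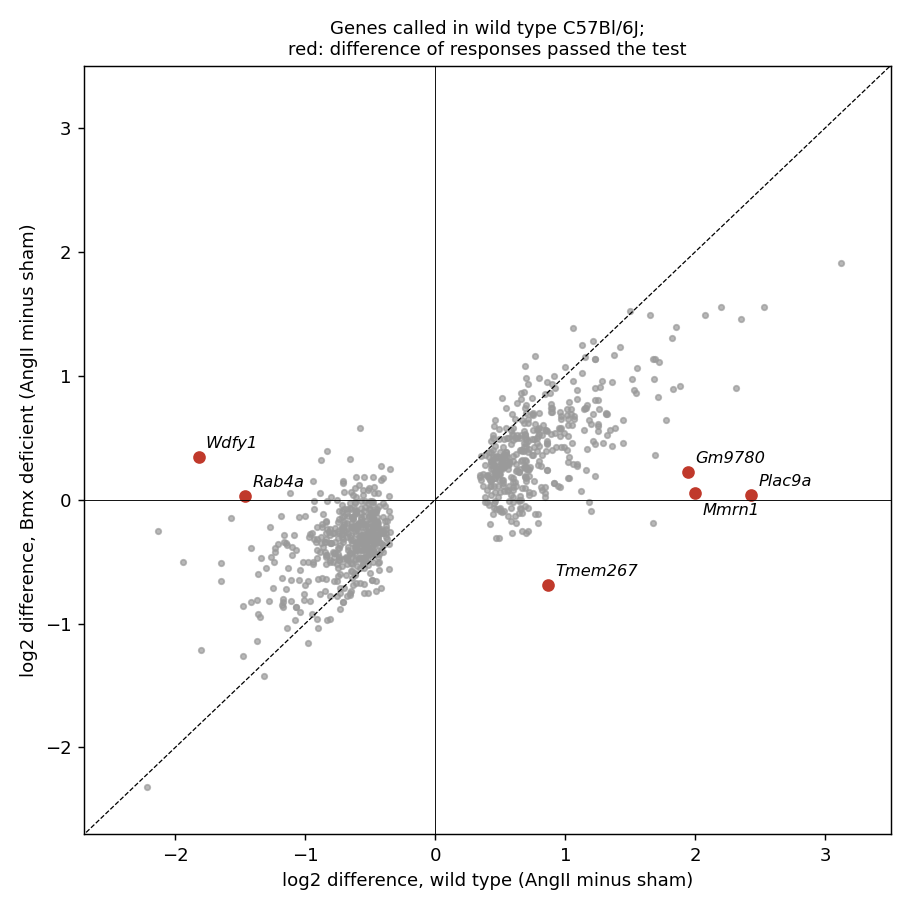
Log2 difference, AngII minus sham, of the 856 genes called in wild type C57Bl/6J (x axis) against the same difference in Bmx deficient C57Bl/6J (y axis), 1 point a gene, with the dashed line marking equal differences. The 6 red genes passed the test of the difference of responses, 5 of them with values between 0.03 (Rab4a) and 0.34 (Wdfy1) on the y axis and Tmem267 at -0.69.

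In wild type Balb/C mice, whose arrays were normalized apart and are given side by side with no test between strains, 3965 of 10669 genes were called (37.2%). Of the 820 wild type C57Bl/6J calls measured there, 708 (86.3%) had the same sign, 507 (61.8%) were called with the same sign and 21 with the opposite sign. Called with the same sign in all 3 comparisons were 138 genes. The gene groups did not line up equally. Fatty acid oxidation (median -0.74), branched-chain amino acid breakdown (-0.55), macrophage markers (1.00) and fibroblast markers (0.72) lay in the same direction in Balb/C, whereas clock genes (0.27) and cell cycle genes (0.60) lay in the opposite one. Uck2 (2.40), Ky (-2.20), Lgals4 (-2.20) and Kcnv2 (-2.23) were called there in the same direction as in C57Bl/6J. Spsb4 (0.67) and Clic5 (0.97) rose in Balb/C too. Zfp710 (0.08), Cxcl9 (0.08) and Mical3 (0.07) lay near 0, and Wdfy1 rose (1.10) where it fell in C57Bl/6J.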

How the data were processed

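The deposited tables gave, for every probe and sample, a linear intensity value without normalization and a detection p-value from the authors' array software, per the file headers. The authors also deposited log2 series values, quantile-normalized by strain per the file headers, which served as an alternative. Per the labels' protocols, TRIsure and NucleoSpin columns were used for RNA and an Ambion MessageAmp kit for biotin labelling. Scanner software, slides and dose are not given in the sources used here. Columns were matched to samples by title, with 0 left over. For Balb/C the detection column as deposited is a score, because 313 values on 11 arrays exceeded 1, and these were set to 1.

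Intensities were corrected with the normal-exponential model of neqc (offset 16), quantile-normalized within the strain and put on the log2 scale (R 4.3.3, limma 3.58.1). Of the kept probes, 17158 had 1 gene symbol, 7 several and 3154 none listed, and symbols were updated through Entrez identifiers to RefSeq GRCm38.p6. A linear model of 4 group means was fitted to the 12 arrays of a strain (8 residual and 4.43 prior degrees of freedom, empirical Bayes), and p-values were adjusted by Benjamini-Hochberg over all genes. For a group in which a probe was never detected, the smallest fold sets each of its arrays to the higher of its value and that array's lowest detected signal. Summed signals add the linear values of a list's genes. With 3 arrays a group, the number of arrays limits precision.

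Genes named were the 20 highest and 20 lowest called genes without overlap outside the hypertrophy and matrix lists, up to 6 called members of each list in each direction with its 2 brightest uncalled members, the 12 smallest adjusted p-values for the difference of responses, and a few reference markers. Predicted genes were left out of the ranking. Others are said to have been chosen after their values were seen. The comparison, the gene lists and these rules were chosen with earlier results of these data known. Gene lists were described by counts and medians and not tested as sets. The replicate numbers did not pair the samples, since same-numbered wild type samples correlated at -0.01, -0.05 and 0.01 in their deviations from the group means.

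Tested on simulated data drawn from these arrays' spread, the fit of AngII against sham called 35.8%, 82.1% and 100% of genes changed by 0.5, 1 and 2 log2 units, with 6 unchanged genes called, and that for the difference of responses called 7.46%, 56.7% and 95.5%, with 2 unchanged genes called.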

Additional observations from a re-analysis of the deposited data

Results flagged for a closer look

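For 6 genes the AngII response of wild type C57Bl/6J mice differed from that of Bmx deficient mice by a test of the difference itself (limma, interaction contrast, 3 arrays in each of 4 groups). The wild type response minus the deficient response was -2.16 for Wdfy1, 1.95 for Mmrn1, 2.39 for Plac9a, -1.49 for Rab4a, 1.72 for Gm9780 and 1.56 for Tmem267, on the log2 scale. In all 6 the wild type AngII arrays lay outside all 9 other arrays, by more than 1 unit in the first 5 and by 0.11 in Tmem267. In Tmem267 the deficient mice also moved in the opposite direction (-0.69). Mmrn1 was detected on the wild type AngII arrays only and met the detection filter only through them, so its value is no measured size and its passing gives no support. Whether Bmx or another difference between the samples goes with these values was not tested.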

How the results depend on the processing

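The 856 calls of the wild type comparison stayed within 1.5 times under the other normalizations, filters, models and gene summaries, between 589 (only the 6 arrays compared) and 1209 (deposited series values), except that testing all kept probes gave 1301. Leaving out 1 of the 6 arrays gave 458 to 688. With the replicate number as a block the count was 736, and in Balb/C 3895 against 3965, and no pairing was found in these numbers. Scaling to a common median gave 797 calls, 41.3% of them higher against 46.5% as reported. The 6 genes with a difference of responses were 15 without background correction, 14 with an offset of 50, 12 with the stricter detection filter, 12 with a trended prior, 13 with array weights, 17 in the deposited series values and 12 with the mean of a gene's kept probes, the last chosen after seeing the data; they were 6 with the replicate block and 5 to 8 on leaving out 1 array. A fit of only the groups compared gives no separate value for this difference. In Balb/C all kept probes gave 6779 calls and leaving out 1 array 3174 to 3578. Of 233 named called genes, 143 kept the call under every alternative that tested them, 120 without each array in turn, 107 under all of these, and 0 changed sign. Of 1062 recomputed list medians, 90 moved and 4 changed sign: pentose phosphate, hexosamine and nucleotide synthesis (-0.03) was 0.04 with all kept probes and -0.05 to 0.01 on leaving out 1 array, integrins and focal adhesion (0.09) 0 to 0.13, and lymphocyte markers (-0.11) -0.18 to 0.01. The causes of these shifts were not tested. Probes near background, where the lower group was undetected (44 called genes), give a bound and not a size.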

Other observations

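The kept probes held 3154 with no listed gene, and 188 of them were called, 78 higher and 110 lower, so that part of the measured response has no gene name here.

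Transport and synthesis of secreted proteins, not described above, moved little. Of 53 genes of protein translocation, glycosylation and vesicle traffic 2 were higher and 0 lower (median 0.10), and the signal peptidase subunit Spcs3 rose by 0.61 ± 0.14 (adjusted p = 0.0177, limma, passing in 15 of 18 settings). Of 34 genes of the ATF4 and endoplasmic reticulum stress response 2 rose and 1 fell, with a median of 0.13. The stress factor Nupr1 read 9.10, 8.62 and 8.22 in AngII and 7.38, 7.91 and 7.58 in sham and rose (1.02 ± 0.19, adjusted p = 0.00796), while Chac1, which degrades glutathione, fell (-0.93 ± 0.24, adjusted p = 0.0341, in 12 of 18). Collagen processing enzymes had 3 of 22 higher and 1 lower: the prolyl hydroxylase subunit P4ha1 rose by 0.99 ± 0.18 (adjusted p = 0.00772, in 17 of 18, with 0.37 ± 0.27 on a second probe of like brightness) and P3h4 fell (-0.69 ± 0.13, adjusted p = 0.00752). The desaturase Scd1, which makes monounsaturated fatty acids, rose by 1.01 ± 0.17 (adjusted p = 0.00508) and rose in Balb/C as well (1.64).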
